A study of Homo sapiens with 5 samples.

Results

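The genes described here are 9 components and readouts of bone morphogenetic protein (BMP) signalling: the readouts ID2, ID3 and ATOH8, the inhibitory SMADs SMAD6 and SMAD7, the ligand BMP4, the receptor BMPR1A, and the secreted antagonists NOG (noggin) and GREM1 (gremlin 1). They are 9 of the 10576 genes in the table, with the most abundant transcript row standing for each gene. The table is incomplete: its rows on chromosome 2 end at 166.5 Mb, and ID1, SMAD1, SMAD5 and BMPR2, among others, have no row. Ranks and shares below refer to the genes in it. The 9 genes were chosen by their values in these same libraries, above all by the differences of ID3, NOG and ATOH8 between siSET and siNT, so those differences are given as a description and carry no test.

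RNA came from MDA-MB-231, an established cell line from a triple-negative human breast tumour with a mesenchymal character, grown in IMDM with fetal bovine serum. One set of cells received an siRNA against SET (siSET), an siRNA against CIP2A (siCIP2A) or a control siRNA (siNT), for 48 hours by the treatment protocol, although the treatment label of siCIP2A gives no time. The other set received OP449, a SET antagonist, at 1 µM for 12 hours (OP449), or PBS for 12 hours (PBS). The cDNA was primed with oligo dT and sequenced on an Illumina GAII. SET and CIP2A are inhibitors of the phosphatase PP2A, and the series sets them against the transcription factor MYC. Each of the 5 groups has 1 library, so no difference below has a replicate check.

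The libraries held 3639530 (siSET) to 5599350 (siCIP2A) reads over the gene table. Values are scaled counts per transcript, which the authors had put on a common scale, and 1 read was worth between 1.10 scaled counts in siCIP2A and 1.71 in siSET. The mesenchymal markers VIM, CD44, ZEB1, AXL and PLAU were all abundant and summed to between 56075 and 64943 scaled counts. Of 8 epithelial and luminal markers in the table, PGR was at 0 in every library, CDH1 stood between 12.9 and 56.7, and the sum, mostly KRT19, was 5060 to 6853. The 6 leukocyte and endothelial markers together stayed between 3.42 and 11.6. Of the epithelial markers past the floor used below, 4 of 5 were lower in siSET and in siCIP2A than in siNT, and 5 of 5 lower in OP449 than in PBS. Of all genes, 2911 of 6081, 2887 of 6099 and 2820 of 6093 were lower in these comparisons. Against PBS, 3 of 5 markers were lower in siSET and 3 of 5 in siCIP2A. The part of these markers in the results was not tested. SET, CIP2A and MYC were not analysed here, so the extent of silencing was not checked. Log2 folds are differences of log2(value + 1). Brackets give the 95% exact counting interval of a log2 ratio between 2 libraries. It covers counting error only, compares libraries rather than conditions, and says nothing of variation between cultures. In a bulk library, a difference in all cells cannot be told apart from a larger difference in some of them.

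BMP ligands such as BMP4 bind pairs of receptor kinases, among them BMPR1A, which phosphorylate SMAD1, SMAD5 and SMAD9. These enter the nucleus with SMAD4 and induce the ID genes, whose products bind basic helix-loop-helix (bHLH) factors and keep them off DNA. SMAD6 and SMAD7 are induced too and shut the receptors down, while noggin and gremlin 1 trap the ligand outside the cell. ATOH8 encodes a bHLH factor that BMP ligands induce in several cell types.

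The promoters of ID3, ID2, SMAD6 and ATOH8, genes that BMP signals induce, are shown to set those with a paired SMAD box beside ATOH8, which has none. Each is the stretch of 250 bases upstream of the RefSeq start site on GRCh38.p14, taken 5′ to 3′ on the gene's strand: chr1:23559502-23559751 (minus strand) for ID3, chr2:8681806-8682055 (plus) for ID2, chr15:66701986-66702235 (plus) for SMAD6 and chr2:85753741-85753990 (plus) for ATOH8. Capitals mark the SMAD box GTCT or its reverse complement AGAC.
ID3: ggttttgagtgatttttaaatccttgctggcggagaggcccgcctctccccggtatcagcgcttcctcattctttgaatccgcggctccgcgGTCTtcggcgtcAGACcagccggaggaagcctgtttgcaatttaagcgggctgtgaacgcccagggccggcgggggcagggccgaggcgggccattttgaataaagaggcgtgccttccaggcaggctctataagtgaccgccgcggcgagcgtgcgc
ID2: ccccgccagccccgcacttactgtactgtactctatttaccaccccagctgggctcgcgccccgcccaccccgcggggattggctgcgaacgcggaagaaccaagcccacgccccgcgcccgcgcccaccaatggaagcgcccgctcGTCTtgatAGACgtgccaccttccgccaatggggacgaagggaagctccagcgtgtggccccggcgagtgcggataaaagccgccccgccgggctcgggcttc
SMAD6: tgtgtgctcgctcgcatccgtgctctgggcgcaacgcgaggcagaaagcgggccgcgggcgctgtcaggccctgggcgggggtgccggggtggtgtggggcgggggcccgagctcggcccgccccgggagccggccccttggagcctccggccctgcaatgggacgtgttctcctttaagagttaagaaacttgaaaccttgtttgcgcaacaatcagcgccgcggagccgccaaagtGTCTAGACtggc
ATOH8: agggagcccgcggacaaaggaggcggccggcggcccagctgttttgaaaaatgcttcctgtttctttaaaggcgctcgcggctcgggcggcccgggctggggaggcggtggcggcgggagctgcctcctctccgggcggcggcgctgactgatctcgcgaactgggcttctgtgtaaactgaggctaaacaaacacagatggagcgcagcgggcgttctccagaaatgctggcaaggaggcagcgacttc

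In ID3 a GTCT was followed by an AGAC with 8 bases between them, in ID2 with 4, and in SMAD6 with 0, where they form the palindrome GTCTAGAC. ATOH8, SMAD7, BMP4, BMPR1A and GREM1 had no such pair with at most 8 bases between. Among 35116 RefSeq promoter windows of this length, 1.97% had such a pair. The spacing was set after these sequences had been seen, so the share is a description only. GTCT alone, on either strand, was in 77.5% of windows and in 10 of the 13 windows of the genes described here other than NOG. ATOH8 and BMPR1A had a match in none of theirs. GTCTAGAC was in 0.182% of windows. GGCGCC, the GC-rich element of BMP-responsive genes, was in 16.4% of windows and, among the genes described here, in those of BMP4 and GREM1. GTCTGG, which contains GTCT, was in 13.9%, with matches in SMAD7 and GREM1. CACGTG, the E-box that MYC binds, was in 6.34%, with a match at BMP4. All motifs were searched on both strands, and a match is not evidence of binding.

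ID3, an inhibitor of bHLH factors and the most abundant readout here, was far apart between the libraries (hg19, chromosome 1, 23884410 to 23886322, minus strand, 3 exons). It stood at 339 scaled counts in siSET and 68.5 in siCIP2A, against 93.6 in siNT, and at 184 in OP449, against 244 in PBS. The siSET library was the highest of the 5 and siCIP2A the lowest. Against siNT, ID3 was 3.59-fold higher in siSET, which is 1.84 on the log2 scale [1.47 to 2.25], with 198 reads in siSET and 79 in siNT. This was the highest of the 6081 genes past the floor of a mean of 50 scaled counts over the 2 libraries. In siCIP2A the fold against siNT was -0.45 [-0.96 to 0.05], which includes 0. In OP449 it was -0.40 against PBS [-0.72 to -0.09]. The control siNT was itself 2.59-fold lower than PBS, at -1.37 [-1.77 to -1.002], the third lowest of 6073 genes. Against PBS, siSET was 1.39-fold higher, at 0.47 [0.19 to 0.76], and siCIP2A was 3.52-fold lower, at -1.82 [-2.26 to -1.42]. In the order siSET, PBS, OP449, siNT, siCIP2A, only the last neighbours did not differ beyond counting error.

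ID2, a close relative of ID3 with the same action, was barely detected (hg19, chromosome 2, 8822113 to 8824581, plus strand, 3 exons). It had 6 reads in siSET and 4 in siCIP2A, against 2 in siNT, and 7 in OP449, against 7 in PBS. In scaled counts these are 10.3, 4.42, 2.37, 9.02 and 7.93, all below the floor. Without the added 1, the log2 ratio was 2.11 between siSET and siNT [-0.37 to 5.46] and -1.74 between siNT and PBS [-5.05 to 0.65]. No neighbours in its order differed beyond counting error. At this depth no difference of ID2 was detectable. RefSeq lists pseudogenes of ID2 and of BMPR1A, so the assignment of reads to both is uncertain.

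ATOH8 was also far apart between libraries, and lowest in siNT (hg19, chromosome 2, 85980909 to 86018505, plus strand). It had 75.3 scaled counts in siSET and 36.4 in siCIP2A, against 24.9 in siNT, and 106 in OP449, against 121 in PBS. All 3 siRNA libraries were below both 12-hour libraries. Against siNT the log2 fold was 1.56 in siSET [0.82 to 2.42], from 44 and 21 reads. The mean of that pair, 50.1, lies just past the floor. In siCIP2A it was 0.53 [-0.28 to 1.41], and in OP449 -0.20 against PBS [-0.63 to 0.23]. The control siNT was 4.72-fold lower than PBS, at -2.24 [-3.03 to -1.60] from 21 and 107 reads, the lowest of 6073 genes. With PBS in place of siNT the direction in siSET turned round, to -0.68 [-1.23 to -0.17]. The same change gave -1.71 in siCIP2A [-2.34 to -1.16]. In the order PBS, OP449, siSET, siCIP2A, siNT, siSET and siCIP2A were the only neighbours that differed beyond counting error, at 1.05 [0.36 to 1.74].

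**Figure D1:**
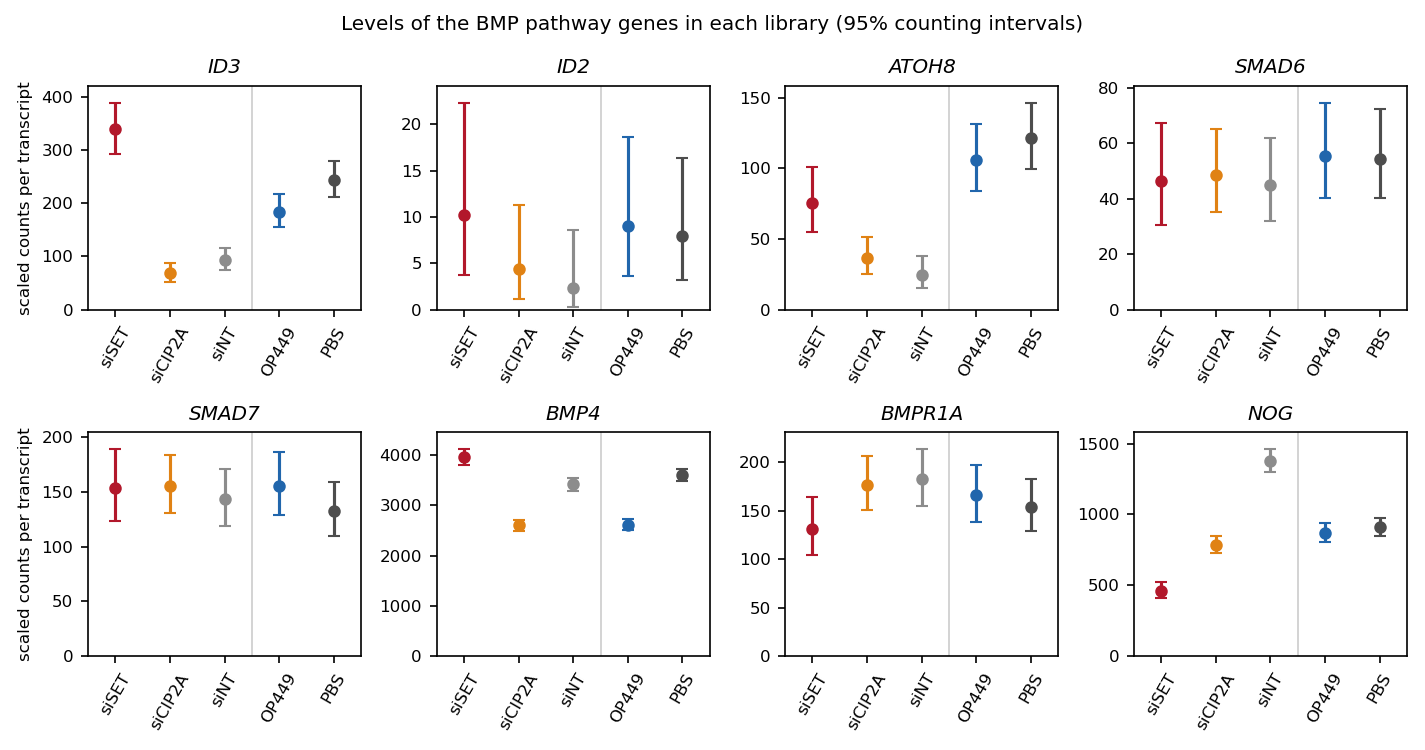
Scaled counts of 8 genes in each library, with 95% exact Poisson intervals that cover counting error only; each axis starts at 0 and has its own scale, and a grey line parts the siRNA libraries from the 12-hour ones. ID3 is highest in siSET (339), ATOH8 in PBS (121) and NOG in siNT (1379), while the intervals of SMAD6 and SMAD7 overlap in all libraries. GREM1, with 1 read in all, is not drawn.

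The inhibitory SMADs were much closer between the libraries than ID3. SMAD6, which blocks BMP receptors in particular, lies on hg19 chromosome 15 from 66994674 to 67074335 on the plus strand. Its level was 46.2 scaled counts in siSET and 48.6 in siCIP2A, against 45.03 in siNT, and 55.4 in OP449, against 54.4 in PBS. From 27 to 48 reads a library, the log2 folds were 0.04 for siSET [-0.73 to 0.79], 0.11 for siCIP2A [-0.55 to 0.78] and 0.03 for OP449 [-0.60 to 0.65]. At this depth differences within these intervals were not detectable. A second, shorter transcript row of SMAD6 held between 41.7% and 55.3% of the reads of the main row.

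SMAD7, which acts on both BMP and TGF-beta receptors, lies on hg19 chromosome 18 from 46446224 to 46477081 on the minus strand. It stood at 154 scaled counts in siSET and 156 in siCIP2A, against 143 in siNT, and at 156 in OP449, against 133 in PBS. Its whole range over the libraries was 1.17-fold, smaller than that of most genes: it was wider than the range of 15.4% of 6090 genes, whose median was 1.33-fold. The log2 folds were 0.10 for siSET [-0.31 to 0.51], 0.12 for siCIP2A [-0.24 to 0.48] and 0.23 for OP449 [-0.15 to 0.61]. For ID3 the range was 4.89-fold, wider than that of 99.8% of genes.

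BMP4 was the most abundant of the genes described here and was measured with the least counting error (hg19, chromosome 14, 54416457 to 54423554, minus strand). It stood at 3957 scaled counts in siSET and 2600.4 in siCIP2A, against 3419 in siNT, and at 2619 in OP449, against 3604 in PBS. The siCIP2A and OP449 libraries were both low and could not be told apart from each other, while siSET was the highest. Against siNT the log2 fold was 0.21 in siSET [0.13 to 0.29] and -0.39 in siCIP2A [-0.47 to -0.32]. In OP449 it was -0.46 against PBS [-0.54 to -0.38], from 2033 and 3179 reads, which placed BMP4 205th from the lowest of 6093 genes. Between the controls, siNT against PBS, it was -0.08 [-0.15 to -0.0027]. Against PBS, siSET stood at 0.13 [0.06 to 0.21] and siCIP2A at -0.47 [-0.55 to -0.39], so BMP4 kept its direction under either control. Its other rows held 91.7% to 94.8% of the reads of the main row.

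BMPR1A, a type I receptor for BMP4, had a 1.38-fold range over the libraries, where the median gene had 1.33-fold (hg19, chromosome 10, 88516396 to 88684944, plus strand). It had 132 scaled counts in siSET and 177 in siCIP2A, against 183 in siNT, and 166 in OP449, against 154 in PBS. The siSET library was the lowest, with a log2 fold of -0.47 against siNT [-0.88 to -0.07] from 77 and 154 reads. Against PBS that difference was -0.23 [-0.65 to 0.19], which includes 0. The folds of siCIP2A, at -0.05 [-0.38 to 0.28], and of OP449, at 0.11 [-0.25 to 0.47], included 0 as well. No neighbours in the order of its levels differed beyond counting error.

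NOG, the gene of noggin, was lowest in siSET, where ID3 was highest (hg19, chromosome 17, 54671060 to 54672951, plus strand, 1 exon). It stood at 462 scaled counts in siSET and 786 in siCIP2A, against 1379 in siNT, and at 871 in OP449, against 908 in PBS. The control siNT was the highest library. Against siNT the log2 fold was -1.58 in siSET [-1.77 to -1.39], a 2.98-fold lower level from 270 and 1164 reads and the eighth lowest of 6081 genes. In siCIP2A it was -0.81 [-0.95 to -0.68]. In OP449 it was -0.06 against PBS [-0.21 to 0.09]. The control siNT stood 0.60 above PBS [0.47 to 0.74]. Against PBS, siSET was 1.96-fold lower, at -0.97 [-1.18 to -0.77], and siCIP2A only 1.15-fold lower, at -0.21 [-0.36 to -0.06]. In the order siNT, PBS, OP449, siCIP2A, siSET, siNT differed from PBS and siCIP2A from siSET beyond counting error, while PBS and OP449, and OP449 and siCIP2A, did not.

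GREM1, the other antagonist (hg19, chromosome 15, 33010205 to 33026866, plus strand), had 1 read in OP449 and 0 in the other libraries. Taking 3 reads as the limit that a count of 0 allows, its level could reach 5.13 scaled counts in siSET, 3.31 in siCIP2A, 3.56 in siNT and 3.40 in PBS. No fold was computed for it. Of this pair, noggin alone had more than 1 read.

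The balance of antagonist to ligand was compared within each library, per kilobase of transcript, for genes whose transcript length was known. For BMP4 this is a shorter row, with 2143 reads in siSET, in place of the most abundant row, with 2313. Noggin was at 0.119 of the BMP4 level in siSET [0.104 to 0.135] and 0.305 in siCIP2A [0.280 to 0.332], against 0.415 in siNT [0.387 to 0.445]. It was at 0.332 in OP449 [0.304 to 0.362], against 0.254 in PBS [0.235 to 0.275]. The siSET ratio was the lowest of the 5 and siNT the highest, and no 95% intervals of siSET, siNT and PBS overlapped. In OP449 the higher ratio came with less BMP4 at nearly equal noggin. Noggin stood at 0.902 times ID3 in siSET [0.748 to 1.09] and 7.59 times in siCIP2A [5.85 to 10.01], against 9.74 in siNT [7.75 to 12.4], and at 3.13 in OP449 [2.61 to 3.77], against 2.46 in PBS [2.12 to 2.88]. In siSET alone the interval included equal levels per kilobase. NOG and ID3 were chosen by their opposite differences between siSET and siNT, so nothing is read from the order of those libraries in these ratios. The mean level per kilobase over the libraries was 1690.0 scaled counts for that BMP4 row, 466 for NOG, 148 for ID3 and 4.99 for ID2.

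**Figure D2:**
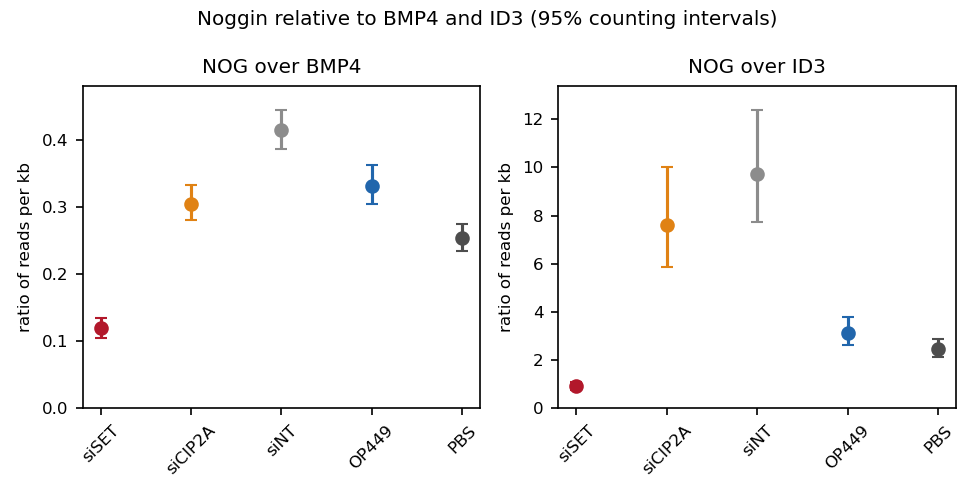
Reads per kilobase of NOG divided by those of BMP4 (left) and of ID3 (right) in each library, with 95% exact counting intervals. The siSET library is lowest in both panels (0.119 and 0.902) and siNT highest (0.415 and 9.74). NOG and ID3 were chosen by their differences between these libraries, so nothing is read from that order.

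Among all genes, few differed as much as ID3, NOG and ATOH8. Of the 6 genes described here that passed the floor in siSET against siNT, 2 were at least 2-fold higher (ID3, ATOH8) and 1 at least 2-fold lower (NOG), where 0.395% of all genes were higher and 0.789% lower. The choice of the genes used these differences, so nothing is read from the count. Of the 5 past the floor in siCIP2A against siNT, none was 2-fold higher or lower, against 0.475% and 0.639% of all genes. In OP449 against PBS none of 7 was, against 0.295% in each direction. In siNT against PBS, none of 6 was at least 2-fold higher and 2 were lower (ID3, ATOH8), against 0.247% and 0.148%. With PBS as the control, none of 7 was 2-fold higher or lower in siSET, against 0.28% and 0.378% of genes, and 2 were lower in siCIP2A (ID3, ATOH8), against 0.705%, with none higher, against 0.41%. ATOH8 passed the floor in siSET against siNT through siSET alone, at 75.3 scaled counts against 24.9. In siNT and in siCIP2A against PBS it passed through PBS alone, at 24.9 and 36.4 against 121. The comparisons with siNT share that library, and those with PBS share PBS. The choice of the genes used siSET and siNT, so nothing is read from the other counts with these libraries either.

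Counting intervals told apart more genes, with the same limit from the choice of the genes. They lay above 0 for ID3, ATOH8 and BMP4 and below 0 for NOG and BMPR1A in siSET against siNT, against 19.8% of all genes in each direction. In siCIP2A against siNT they lay below 0 for NOG and BMP4 (20.2% of all genes) and above 0 for none (21.3%). In OP449 against PBS they lay below 0 for ID3 and BMP4 (16.9%) and above 0 for none (19.3%). In siNT against PBS they lay above 0 for NOG (17.7%) and below 0 for ID3, ATOH8 and BMP4 (17.7%). In siSET against PBS they lay above 0 for ID3 and BMP4 (19.2%) and below 0 for NOG and ATOH8 (19.3%). In siCIP2A against PBS they lay above 0 for none (22.4%) and below 0 for ID3, ATOH8, NOG and BMP4 (20.4%). The medians over the genes past the floor were 0.16, -0.39, -0.06 and 0.02 in the first 4 of these comparisons, beside 0.01, 0.02, 0.02 and -0.004 over all genes.

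**Figure D3:**
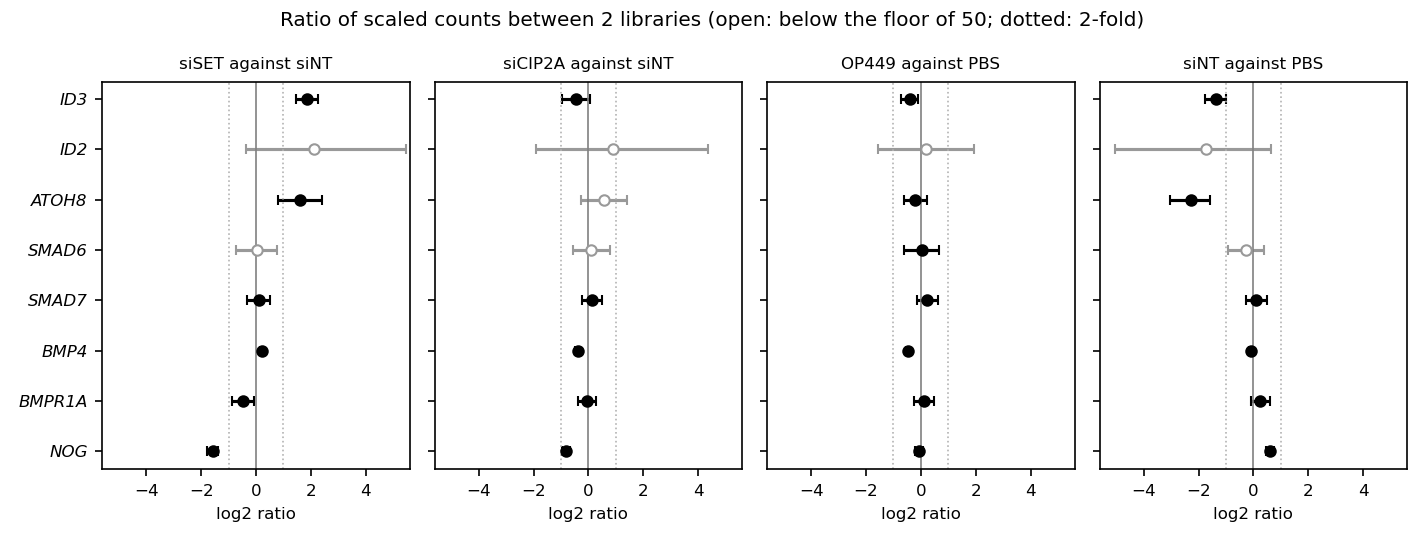
Log2 ratios of scaled counts for 8 genes in 4 comparisons, with 95% exact counting intervals; the library named first is above the other where the ratio is positive, filled points are past the floor, and dotted lines mark 2-fold. ID3 and ATOH8 lie right of the 2-fold line in siSET against siNT and left of it in siNT against PBS, with NOG on the opposite side of 0 in both.

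The other genes of the pathway came from lists by role that hold none of the 9 genes above, and 53 of their 95 genes are in the table. ID1, ID4, SMAD1, SMAD5 and BMPR2 are among those without a row, so the pathway is covered in part only. Of the 53, 27 passed the floor in siSET against siNT, 13 above and 14 below, with a median log2 fold of -0.004 and none at least 2-fold apart. In siCIP2A against siNT 27 passed, 14 above and 13 below, with a median of 0.02. In OP449 against PBS 28 passed, 21 above and 7 below, with a median of 0.12, of which 6 had an interval above 0 and 3 below. Of all 6093 genes there, 3273 were above and 2820 below, with a median of 0.02. Their intervals lay above 0 for 19.3% and below 0 for 16.9%. In siNT against PBS 27 passed, 15 above and 12 below, with a median of 0.05. No gene of these lists was 2-fold apart in any of these 4 comparisons. Of all genes, only 0.148% to 0.789% were so in either direction, so nothing is read from these counts of 0.

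Among the ligands of the BMP and GDF family, GDF2, GDF3 and GDF10 were at 0 in every library, and GDF15, a stress-induced cytokine, varied most of those past the floor. GDF15 stood at 68.4 scaled counts in siSET and 131 in siCIP2A, against 111 in siNT, and at 192 in OP449, against 130.4 in PBS. Its log2 fold was -0.70 in siSET against siNT [-1.27 to -0.15] and 0.55 in OP449 against PBS [0.20 to 0.92]. GDF11 (0.28 [-0.08 to 0.64] in siSET, -0.28 [-0.64 to 0.07] in siCIP2A) and AMH (0.08 and -0.12) had intervals that included 0. BMP8B, at 65.7 in OP449 against 49.9 in PBS, had a fold of 0.39 [-0.21 to 1.01].

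Of the receptors and co-receptors past the floor, BAMBI, a decoy receptor that dampens BMP and TGF-beta signals, had the largest fold in each treated library against its control. It had 115 scaled counts in siSET and 92.8 in siCIP2A, against 67.6 in siNT, and 87.6 in OP449, against 56.7 in PBS. The log2 fold was 0.75 in siSET [0.23 to 1.30], 0.45 in siCIP2A [-0.04 to 0.97] and 0.62 in OP449 [0.08 to 1.18]. Both controls were below all 3 treated libraries, as they were for ACVR1B. Against PBS, BAMBI was 1.003 higher in siSET on the log2 scale [0.47 to 1.57]. ACVR1B, an activin type I receptor, had a fold of 0.35 in siSET [0.08 to 0.61] and 0.41 in siCIP2A [0.18 to 0.65]. It was at 0.39 in OP449 against PBS [0.12 to 0.66], with siNT at 0.35 against PBS [0.08 to 0.62]. TGFBR3, a co-receptor that presents ligands, stood at -0.38 in siSET [-0.71 to -0.06]. NEO1, a receptor for RGM co-receptors, was at 0.43 in siSET [-0.08 to 0.96] and 0.26 in siCIP2A [-0.22 to 0.75], and ACVR2A at 0.18 in OP449 [-0.27 to 0.64]. All 6 receptors past the floor were above PBS in OP449, 2 with an interval above 0, where 3273 of all 6093 genes were above and 19.3% had such an interval.

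Among SMADs and intracellular regulators, SMAD3, which carries TGF-beta rather than BMP signals, stood at 2989 scaled counts in siSET, against 4069 in siNT, a log2 fold of -0.44 [-0.53 to -0.36]. In OP449 it was 0.26 above PBS [0.18 to 0.33]. CTDSP2, a phosphatase that can dephosphorylate SMADs, was at 0.36 in siSET [0.25 to 0.47], and SKI, a SMAD corepressor, at -0.32 [-0.46 to -0.19]. Against PBS, CTDSP2 in siSET was at 0.09 [-0.01 to 0.20]. In siCIP2A the SMAD phosphatase PPM1A stood at 0.40 [0.26 to 0.55], the ubiquitin ligase NEDD4L at 0.38 [0.29 to 0.48] and LEMD3, a nuclear envelope inhibitor of SMADs, at 0.28 [0.02 to 0.53]. Against PBS, NEDD4L stood at 0.08 [-0.01 to 0.17] and LEMD3 at 0.17 [-0.07 to 0.42] in siCIP2A. SMURF2, a ubiquitin ligase for receptors and SMADs, was the lowest in OP449, at -0.30 [-0.40 to -0.21], while siNT was 0.30 above PBS [0.21 to 0.38]. NEDD4L was -0.30 [-0.40 to -0.21] and TOB1, an antiproliferative protein, 0.30 [0.05 to 0.56] in siNT against PBS.

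Of the other extracellular antagonists and modulators, the gremlin relative NBL1 stood between 1365 and 1466 scaled counts, with a fold of 0.04 in siCIP2A [-0.07 to 0.16]. FSTL3, which binds activins, was at -0.47 in siSET [-0.76 to -0.19], 0.26 in siCIP2A [0.05 to 0.48] and 0.32 in OP449 [0.09 to 0.56]. HTRA1, a secreted protease, was at 0.42 in siSET [0.29 to 0.55], and CRIM1, a membrane protein that binds BMP ligands, at 0.09 in siCIP2A [0.02 to 0.17], -0.12 in OP449 [-0.19 to -0.05] and -0.29 in siNT against PBS [-0.36 to -0.22]. Against PBS, FSTL3 in siSET was at -0.28 [-0.57 to 0.01], and CRIM1 in siCIP2A turned to -0.20 [-0.27 to -0.13]. TWSG1 stood at 0.09 in siSET [-0.02 to 0.19] and 0.14 in OP449 [0.04 to 0.24]. Of the 8 further target genes in the table only JUNB passed the floor, with folds of 0.01 in siSET [-0.27 to 0.28], -0.11 in siCIP2A [-0.35 to 0.14] and 0.15 in OP449 [-0.09 to 0.39].

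**Figure D4:**
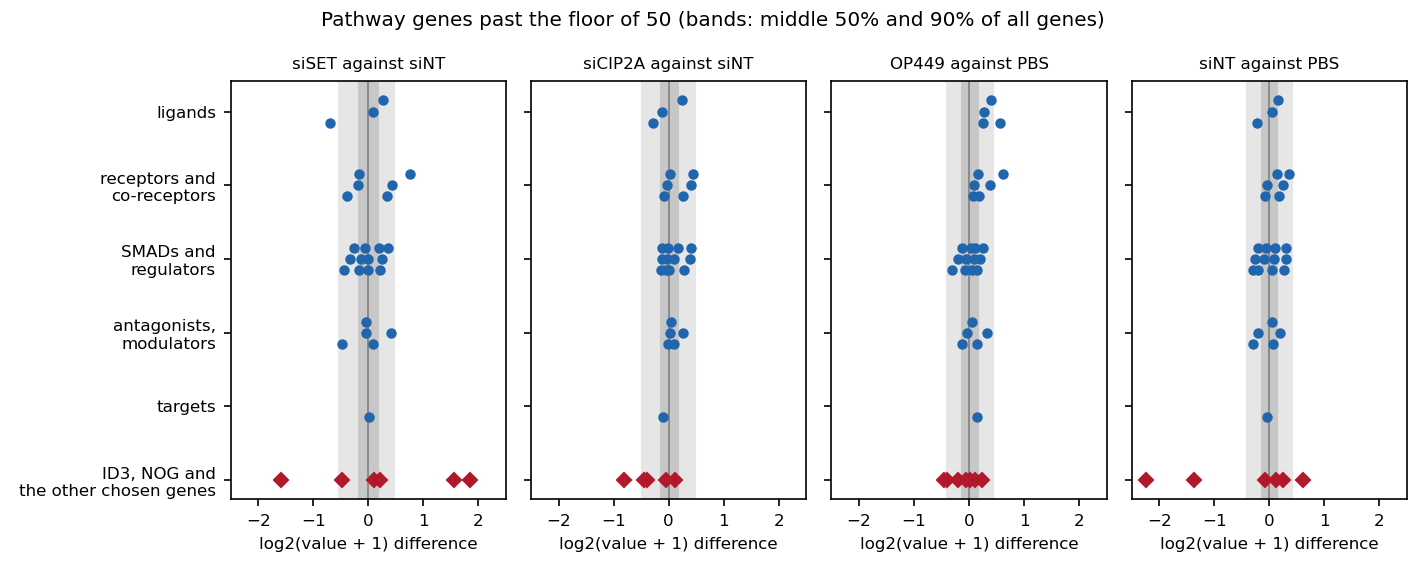
Differences of log2(value + 1) for pathway genes past the floor, by role (blue), and for the 9 genes chosen where they passed it (red); bands hold the middle 50% and 90% of all genes. The list genes lie within 1 of 0 in all 4 panels, and ID3, ATOH8 and NOG lie outside both bands in siSET against siNT. ID3, ATOH8 and NOG were chosen by that difference, so nothing is read from the contrast.

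The genes whose profile over the 5 libraries lay nearest to ID3, by the root mean square difference of log2(value + 1) after centring each gene, were MPP2 (0.30), NNMT (0.38), MATN3 (0.46) and MARCKSL1 (0.46), where the median of all genes was 0.86. For ATOH8 they were MPP2 (0.40), TMEM97 (0.51), PPP6R3 (0.54) and LRRC8B (0.55), with a median of 0.88 over all genes. For NOG they were MAP4K4 (0.12), ARHGEF19 (0.15), POU2F2 (0.19) and CCDC88B (0.20), with a median of 0.53. MAP4K4, a kinase, had 3464 scaled counts in siSET and 6161 in siCIP2A, against 8629 in siNT, and 5648 in OP449, against 6193 in PBS. The likeness rests on 5 libraries, among them the pair whose difference chose ID3, ATOH8 and NOG. The named genes were picked as the nearest, so they lie below the medians by choice. MPP2 stood between 25.4 and 71.8 scaled counts, so counting error is part of its profile.

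**Figure D5:**
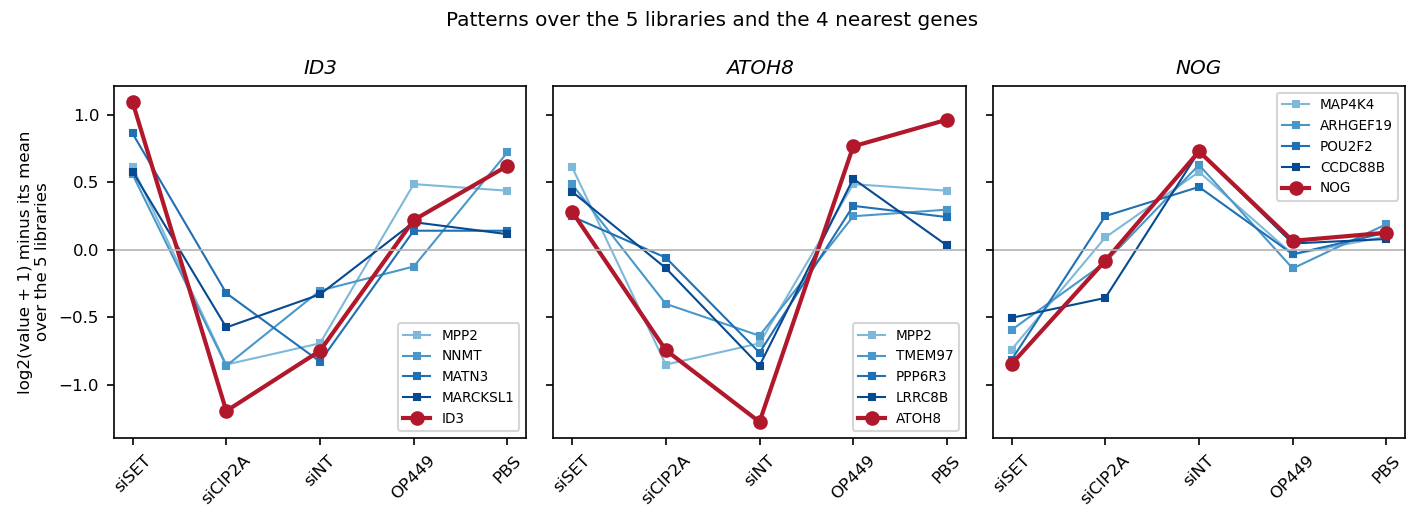
Log2(value + 1) of ID3, ATOH8 and NOG (red) and of the 4 genes nearest to each (blue), after subtracting each gene's mean over the 5 libraries; lines join values for legibility and no order of libraries is meant. MPP2 is nearest to both ID3 and ATOH8. The genes near NOG share its high value in siNT and its low value in siSET, which follows from picking the nearest.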

How the data were processed

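The deposited table holds, for each library, a signal per RefSeq transcript that the authors had already multiplied to a common scale (scaled counts). The build is hg19, and CASAVA and Bowtie 1.0.0 are named per the submitters' processing notes. The sources used here name neither the program that counted reads, nor its strand setting, nor the way values were scaled. Dividing by the value of 1 read gave whole reads for 100% of values in each library (tolerance 0.001 reads), so whole reads were recovered. Of 16383 rows, 15739 matched a RefSeq symbol by accession.

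Folds are differences of log2(value + 1), which understates those of low genes. A gene was counted at a fold of at least 2 and a mean of at least 50 over both libraries. Ratios have 95% exact Clopper-Pearson intervals from recovered reads (SciPy 1.17.1). These carry no molecular identifiers. The procedure was tested on simulated libraries that held counting error only, so it was not tested against variation between cultures. Lengths are those of GENCODE transcripts whose span was within 100 bases of the row's. Named genes are the 9 chosen ones, up to 3 per list and comparison with the largest folds, and the 4 nearest profiles. Genes and lists were chosen with earlier results of these data known.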

Additional observations from a re-analysis of the deposited data

How the results depend on the processing

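No paired analysis was possible because each group has 1 library. The count of 2 genes at least 2-fold higher in siSET against siNT became 1 with a floor of 200 and under each of the 3 rescalings (equal totals, median of ratios, upper quartiles), under which ATOH8 has no value past the floor, and 0 with PBS as the control. The 1 lower gene, NOG, became 0 with PBS. In siCIP2A against siNT the count of 0 lower genes became 1 at a fold of 1.5 and 2 with PBS. In siNT against PBS the 2 lower became 0 with a floor of 200, and the 0 higher became 1 at a fold of 1.5. Added after seeing the data, an exact binomial test on reads, Benjamini-Hochberg adjusted at 0.05, compares libraries only. It called 33.1% of 6099 genes in siCIP2A against siNT, 26.5% of 6093 in OP449 against PBS and 26% of 6073 in siNT against PBS. Of the 7 chosen genes past the floor in OP449 against PBS, it called 2 lower (ID3, BMP4) and none higher. Of all 6093 genes there, it called 797 lower and 819 higher. Its calls in comparisons with siNT (29.6% of 6081 genes in siSET against siNT) are not given for the 9 genes, whose choice used that library. Of 207 values of single genes under other settings, 201 stayed within the counting interval. A change of floor cannot move such a value, so this share overstates how stable the folds are. Within a wide interval the sign could change: ID2 in siCIP2A went from 0.68 to -0.72 with PBS as control. The values that left the interval all had PBS as control: ATOH8 in siSET was reversed, at -0.68, and 5 moved. PBS is no matched control for siSET or siCIP2A, since it differs from them in siRNA and in time. Rescaling shifted the median of all genes by at most 0.03. Depth limits ID2, GREM1 and SMAD6 most.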

Other observations

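Of 20 bHLH factors in the table that ID proteins bind or resemble, 7 passed the floor in siSET against siNT, at a median log2 fold of -0.004. None had a counting interval that excluded 0, against 19.8% of all genes in each direction. TCF3, an E protein and main partner of ID proteins, stood at 1242 scaled counts in siSET, against 1315 in siNT, at -0.08 [-0.22 to 0.05]. TCF12, another E protein, was at 0.18 in siSET [-0.01 to 0.38] and at 0.27 in OP449 against PBS [0.10 to 0.43], while TCF4 was at 0 in every library. In siCIP2A the MAX partner MXD1 stood at -0.36 [-0.69 to -0.04] and BHLHE41, a circadian repressor, at -0.35 [-0.70 to -0.01]. Against PBS, MXD1 stood at -0.17 [-0.50 to 0.16] and BHLHE41 at 0.16 [-0.21 to 0.54] in siCIP2A. BHLHE41 was 0.52 above PBS in siNT [0.16 to 0.88] and at -0.33 in OP449 against PBS [-0.77 to 0.10]. HES4 was 0.49 above PBS in siNT [0.10 to 0.91]. No gene of this list was 2-fold apart in these comparisons. As only 0.148% to 0.789% of all genes were so in either direction, nothing is read from that.

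SMAD9, a BMP-specific SMAD, and SOST, a BMP and Wnt antagonist, were below the floor and were looked at after their values were seen. SMAD9 had 51.3 scaled counts in siSET and 25.4 in siCIP2A, against 26.1 in siNT, and 36.1 in OP449, against 34.0 in PBS. SOST had 30.8 in siSET and 5.52 in siCIP2A, against 47.4 in siNT, and 21.9 in OP449, against 17.0 in PBS.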
